A study of Populus tremula x Populus tremuloides with 12 samples.

Results

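A week outdoors in sunlight changed transcript levels across the leaves of hybrid poplar that overexpresses MYB165. Of 322 genes that wild-type leaves raised or lowered in sunlight, 316 (98.1%) had a fold change of the same sign in these plants. With each genotype fitted alone that share was 94.8%. Among all tested genes, 49.3% were higher in sunlight in these plants and 50.7% lower. The comparison is within the MYB165-overexpressing genotype (OE below). It sets 3 sunlight-exposed libraries, labelled 165OE_2, 165OE_4 and 165OE_6, against 3 greenhouse libraries, labelled 165OE_1, 165OE_3 and 165OE_5, so that 6 of the 12 libraries of the series enter it by their labels alone. They are called OE sunlight 2, 4 and 6 and OE greenhouse 1, 3 and 5 here. The other 6 libraries come from wild-type plants (WT), 3 from sunlight and 3 from the greenhouse. They serve to estimate each gene's spread and to show the response to sunlight without the transgene.

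All plants were the hybrid Populus tremula x Populus tremuloides, and the transformed material was clone INRA 353-38. OE plants carry MYB165 in the binary vector pMDC32, in which a constitutive promoter of viral origin drives the inserted gene, brought in by Agrobacterium. No source used here says whether the OE plants belong to a single transgenic line. Both genotypes spent 1 month in a mist chamber after tissue culture and 2 months in a greenhouse, and the sunlight plants then had 1 further week outside. The sunlight plants were thus at another site and, unless the greenhouse plants were kept for the same week, also 1 week older. Neither can be told apart from light, and "sunlight" names that whole difference. Leaves 7 to 10, counted down from the shoot tip, gave the RNA. The design text names 3 plants of each genotype and condition, as many as there are libraries, and p-values below measure the spread between these plants. The leaves were taken whole, so fewer cells of a type and less RNA per cell cannot be told apart in any result.

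MYB165 belongs to a class of poplar MYB transcription factors that act as repressors of flavonoid and phenylpropanoid genes, the pathways that make tannins, flavonols and lignin precursors. Leaves that move from a greenhouse into full sunlight meet more visible light and ultraviolet radiation, and plants are known to answer with photoreceptor signalling, photoprotection and, in poplar, the accumulation of flavonoids and condensed tannins. Some genes of that answer are thus of the kind a MYB repressor acts on, while many others are not. The files give gene IDs without names and no table pairs them here, so the results below are given by gene ID and by groups of genes, no gene is assigned a function, and neither MYB165 nor leaf marker genes were analysed.

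The 6 OE libraries held between 5870132 (OE sunlight 2) and 27711999 (OE sunlight 6) reads counted in genes. A gene without a read in a library may still be present at up to 0.479 CPM (reads of the gene scaled to a common library size) in the shallowest of them, or 0.104 CPM in the deepest, counting error only. OE greenhouse 3 stood apart from the other 5. Over the 12509 genes averaging at least 10 CPM in OE, its correlation with the other 2 greenhouse libraries was 0.887 and 0.891, while those 2 correlated at 0.967 and the sunlight libraries among themselves at 0.955 to 0.978. A principal component with 61.55% of the variance placed the sunlight libraries at 19.5 to 27.7, OE greenhouse 1 and 5 at -4.96 and -4.69, and OE greenhouse 3 at -65.3. OE sunlight 2 had 13.06% of its reads outside annotated genes, against 7.55% and 8.47% in the other sunlight libraries and 7.23% to 8.15% in the greenhouse ones. Among the WT libraries, reads outside genes reached 32.2% in WT greenhouse 5 and 16.4% in WT greenhouse 3, against 6.85% to 7.74% in the other 4. The counts of called genes without OE greenhouse 3 stand beside those with it below, and the part of these differences in the results was not tested.

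Sunlight raised 667 genes and lowered 454 in OE leaves, 2.91% and 1.98% of the 22959 genes tested, at a limma adjusted p under 0.05. Most of the changes were moderate. The raised genes had a median log2 fold change of 0.86, or 1.81-fold, with the middle of their range between 0.68 and 1.16, and the lowered genes one of -1.03, or 2.04-fold, with the middle between -1.48 and -0.75. Of the raised genes 240 were at least 2-fold higher by the fitted value and 427 were not, and of the lowered genes 244 were at least 2-fold lower and 210 were not. At 4-fold or more the directions were even, with 53 raised and 53 lowered genes. Over all tested genes the median log2 fold change was -0.01.

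The number of calls leaned on single libraries, those of sunlight most of all. It was 630 without OE sunlight 2, 193 without OE sunlight 4 and 114 without OE sunlight 6, against 965, 787 and 1197 without OE greenhouse 1, 3 and 5, in place of 1121 with all libraries (4.88% of genes). Every one of the 114 genes called without OE sunlight 6 was also among the 1121. WT libraries do not enter the fold change but share the estimate of the spread, and without WT greenhouse 3 the count was 701. Fitted without any WT library, the 6 OE libraries gave 48 called genes, 23 higher and 25 lower, of which 46 were among the 1121. Without OE greenhouse 3 the 787 calls were 443 higher and 344 lower. Weighting libraries by their quality gave 1241 higher and 1245 lower.

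**Figure D1:**
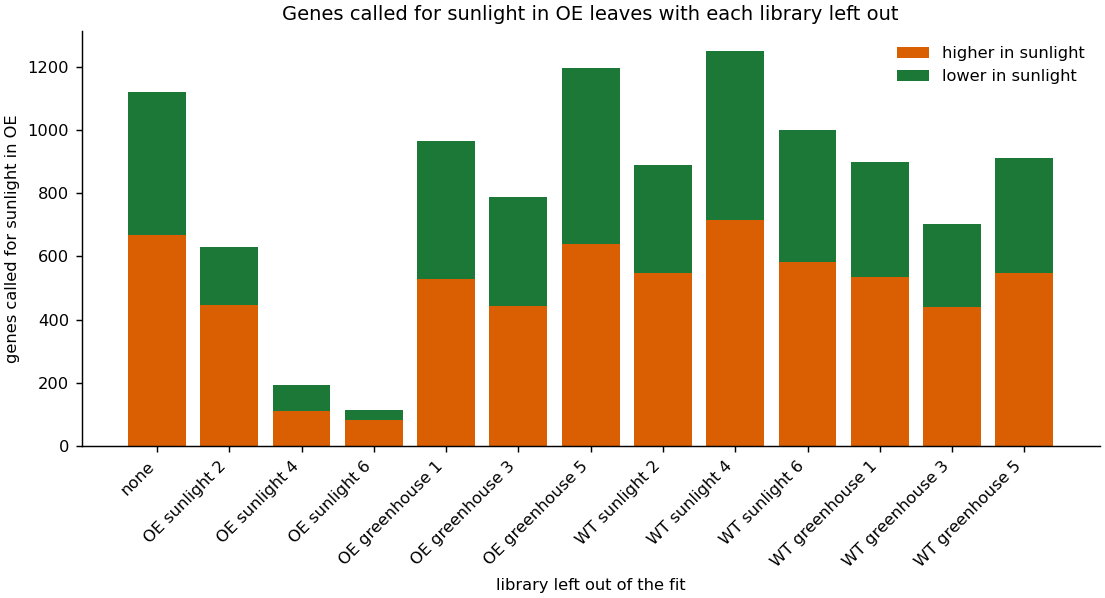
Genes called for sunlight in OE leaves (limma adjusted p under 0.05, vertical axis) when no library or the named library is left out of the 12-library fit (horizontal axis), split into genes higher and lower in sunlight. The bars without OE sunlight 4 and 6 reach 193 and 114, against 1121 with all libraries.

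Since so many calls hung on 1 library, the genes that outlast each of them were set apart. These are the 100 genes (0.436% of those tested) that were called with all libraries and again whichever of the 6 OE libraries was left out, 72 higher and 28 lower in sunlight. All 100 were also called when any 1 of the 6 WT libraries was left out. Their changes were larger than those of the calls at large: the median log2 fold change was 1.26 (2.40-fold) for the 72 raised genes and -1.46 (2.75-fold) for the 28 lowered ones, and 82 of the 100 had changed at least 2-fold. That follows in part from the way they were chosen, since small changes lose their call more easily. The median raised gene of this group averaged 40.3 CPM in OE sunlight and 16.6 CPM in OE greenhouse. The median lowered gene averaged 17.6 CPM in OE sunlight and 51.7 CPM in OE greenhouse. All the fits that set this group apart kept WT libraries. Without any WT library only 48 genes were called in all, so most of the 100 lost their call there.

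The 4 genes described next come from these 100, by a rule that takes genes of at least 10 CPM whose sunlight and greenhouse libraries do not overlap in OE. In each direction it names the gene with the largest fold change and the gene with the most reads. Such genes numbered 66 raised and 26 lowered.

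Potra002245g17252 had the largest rise among them. It stood at 154, 74.7 and 129 CPM in OE sunlight 2, 4 and 6, against 13.8, 14.9 and 4.68 CPM in OE greenhouse 1, 3 and 5. The lowest sunlight library lay far above the highest greenhouse library, and OE greenhouse 5 was the lowest of all. The log2 fold change was 3.595 ± 0.51 (SE), or 12.1-fold, with limma adjusted p = 0.00619. Without OE greenhouse 5 it was 2.99. In WT leaves Potra002245g17252 stood at 293, 635 and 895 CPM in sunlight 2, 4 and 6, and at 18.0, 28.6 and 42.2 CPM in greenhouse 1, 3 and 5, a rise of 4.26 ± 0.53 (SE) on the log2 scale with limma adjusted p = 0.00660. The response in OE thus had the direction of that in WT, and OE minus WT it differed by -0.66 (95% interval -2.27 to 0.95), an interval that holds 0.

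Potra003143g20837 had the most reads among the raised genes, and its change was smaller. It was at 919, 1216 and 1093 CPM in OE sunlight 2, 4 and 6, and at 535, 418 and 531 CPM in OE greenhouse 1, 3 and 5. The groups did not overlap, as the rule requires, and OE greenhouse 3 was the lowest library. The log2 fold change was 1.12 ± 0.15 (SE), or 2.17-fold, with limma adjusted p = 0.00529. The call was lost when the 6 OE libraries were fitted without WT. WT leaves averaged 1194 ± 74.1 CPM in sunlight and 652 ± 5.25 CPM in the greenhouse (SD, n = 3 each) for Potra003143g20837, which amounts to 0.87 ± 0.15 (SE) as log2 fold change, limma adjusted p = 0.0225. The OE minus WT difference was 0.25 (95% interval -0.21 to 0.71).

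Potra002232g17151 had both the largest fall among these genes and the smallest p of all genes tested in OE. It stood at 6.39, 12.6 and 9.60 CPM in OE sunlight 2, 4 and 6, against 101, 164 and 88.9 CPM in OE greenhouse 1, 3 and 5. Every greenhouse library was several times above every sunlight library, and OE greenhouse 3 was the highest. The log2 fold change was -3.596 ± 0.28 (SE), or 12.1-fold lower, with limma adjusted p = 0.00081. In WT leaves Potra002232g17151 averaged 10.4 ± 1.97 CPM in sunlight and 58.0 ± 10.6 CPM in the greenhouse (SD, n = 3 each), which amounts to -2.46 ± 0.26 (SE) as log2 fold change, limma adjusted p = 0.00259. In sunlight the log2 ratio of OE over WT was -0.13 (95% interval -0.75 to 0.50), with limma adjusted p = 0.986. In the greenhouse it was 1.004 (95% interval 0.45 to 1.55), higher in OE with limma adjusted p = 0.0443. These OE over WT ratios share their OE libraries with the sunlight comparison. The OE minus WT difference between the falls was -1.13 (95% interval -1.96 to -0.30, not adjusted for the choice of gene), with limma adjusted p = 0.818. The choice by the largest fall in OE favours a difference below 0.

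Potra001566g12943 had the most reads among the lowered genes. It was at 209, 238 and 197 CPM in OE sunlight 2, 4 and 6, and at 549, 615 and 499 CPM in OE greenhouse 1, 3 and 5. The libraries of each condition lay close together and far from those of the other. The log2 fold change was -1.37 ± 0.18 (SE), or 2.58-fold lower, with limma adjusted p = 0.00529. WT leaves averaged 183 ± 43.9 CPM in sunlight and 321 ± 25.1 CPM in the greenhouse (SD, n = 3 each) for Potra001566g12943, which amounts to -0.84 ± 0.17 (SE) as log2 fold change, limma adjusted p = 0.0398. The OE minus WT difference was -0.53 (95% interval -1.06 to 0.01).

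**Figure D2:**
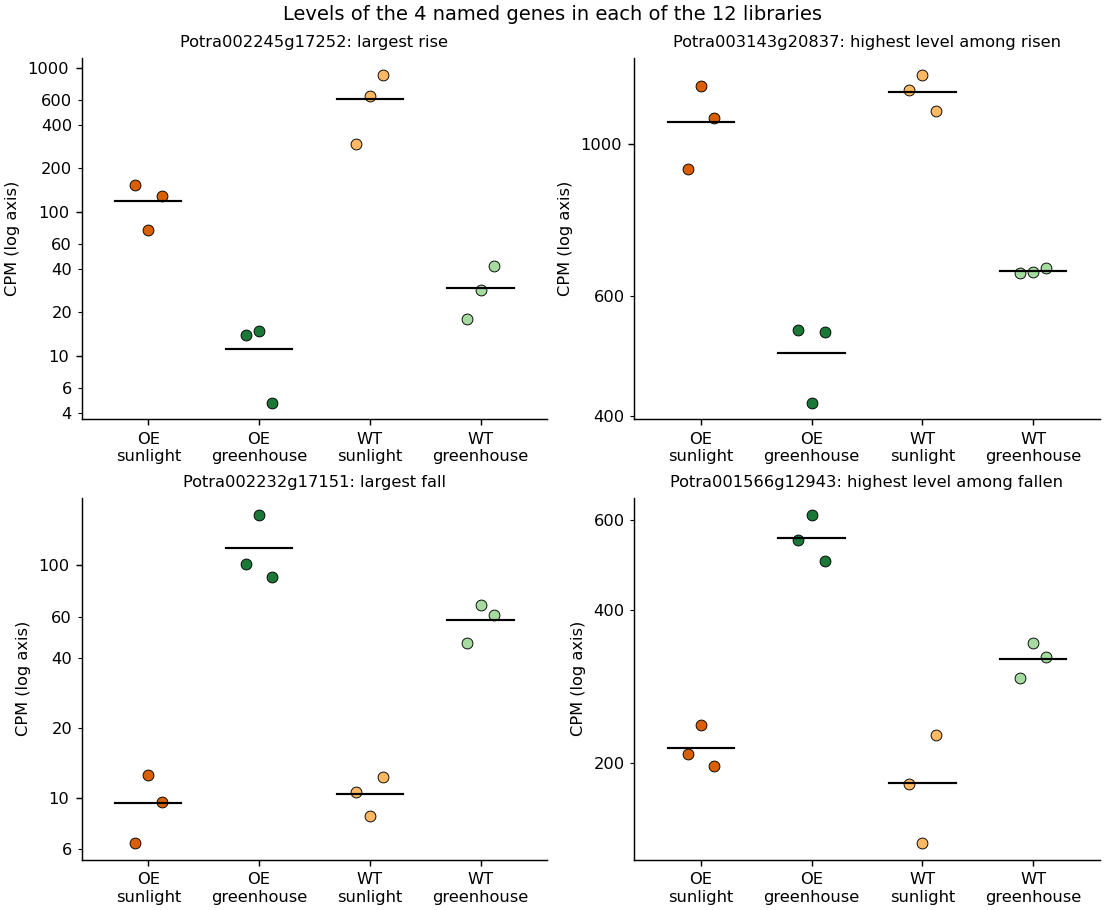
CPM (log axis) of 4 genes in each of the 12 libraries, grouped as OE sunlight, OE greenhouse, WT sunlight and WT greenhouse; points are libraries and lines are group means. In OE the sunlight libraries of Potra002245g17252 and Potra003143g20837 all lie above the greenhouse libraries, and those of Potra002232g17151 and Potra001566g12943 all lie below. The rule that chose the genes requires this lack of overlap.

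When the test asked for a change beyond 2-fold rather than beyond 0, 2 genes passed a limma adjusted p under 0.05. One was Potra002232g17151, above. The other, Potra000539g03787, was chosen after its values were seen. It stood at 694, 400 and 533 CPM in OE sunlight 2, 4 and 6, against 58.7, 49.4 and 32.7 CPM in OE greenhouse 1, 3 and 5, so that the lowest sunlight library was well above the highest greenhouse one. The log2 fold change of Potra000539g03787 was 3.54 ± 0.32 (SE), or 11.6-fold, and in WT leaves it was 3.94 ± 0.34 (SE). For the remaining genes the test did not place the change beyond that limit.

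Calls were more frequent among genes with more reads. The tested genes were ranked by mean CPM in OE and split into 4 groups of equal size. In the lowest group, up to 3.75 CPM, 2.33% were called, and the median SE of the log2 fold change was 0.357. In the next groups 3.71% and 5.40% were called, with median SEs of 0.207 and 0.168. In the highest group, from 31.3 CPM, 8.08% were called and the median SE was 0.169, so that the call rate differed between the upper groups while the median SE hardly did. The highest group held 45.1% of the raised genes and 35.9% of the lowered ones. Its called genes had a median absolute log2 fold change of 0.81, against 1.57 in the lowest group. CPM is not corrected for gene length, so this ranks reads and not transcript abundance.

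**Figure D3:**
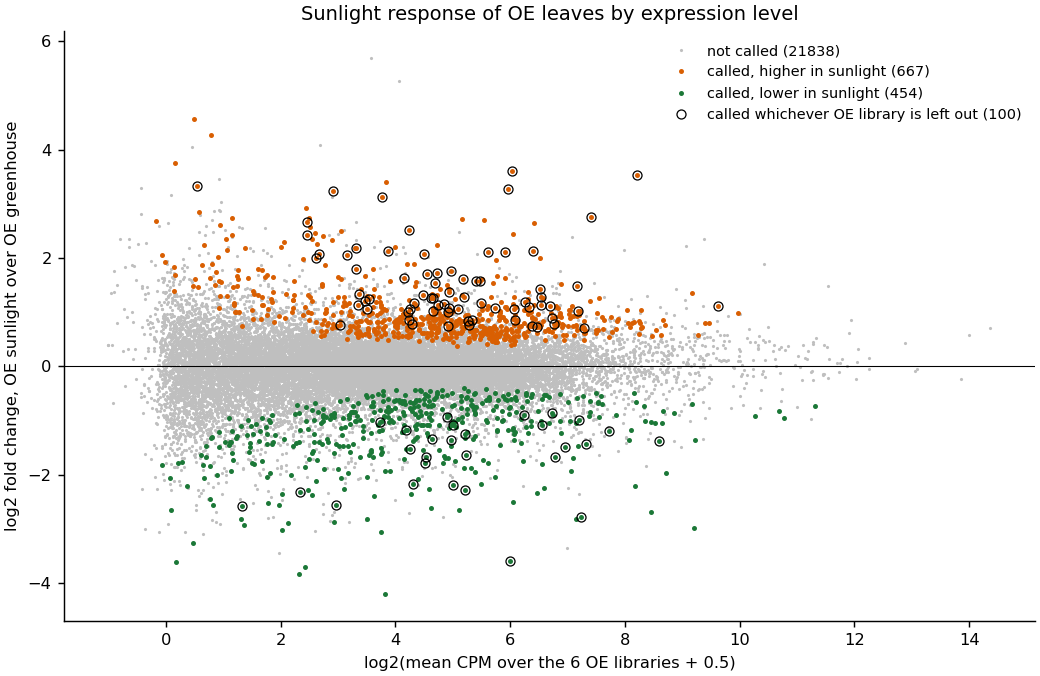
log2 fold change of OE sunlight over OE greenhouse (vertical axis) against log2(mean CPM over the 6 OE libraries + 0.5) (horizontal axis) for the 22959 tested genes. Coloured points are the 667 genes called higher and 454 called lower, and circles mark the 100 called whichever OE library is left out, which spread over most of the range of levels.

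The OE response can also be read in genes called for sunlight in WT. The fold change behind those calls is that of WT libraries, while their p-values draw on all 12 libraries. In WT, sunlight raised 146 genes and lowered 176 (0.636% and 0.767% of genes) at a limma adjusted p under 0.05, which is 322 genes or 1.4%. The OE libraries share in the spread behind these calls, and the number called in WT was 1022 without OE greenhouse 3, 208 without OE sunlight 2, 222 without OE sunlight 4 and 141 without OE sunlight 6. Of the 146 raised in WT, 143 had a log2 fold change above 0 in OE, and of the 176 lowered in WT, 173 had one below 0. Of the 1022 genes called in WT without OE greenhouse 3, 998 had the same sign in OE. Among all tested genes 49.3% were above 0 in OE and 50.7% below. The median OE log2 fold change was 0.94 for the genes raised in WT and -0.86 for those lowered in WT. Their WT medians, 1.07 and -1.13, come from the contrast that chose them and are not comparable in size.

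Each OE sunlight library showed this direction. Among the 146 genes raised in WT, all 3 OE sunlight libraries lay above all 3 OE greenhouse libraries for 114 (78.1%), while this was so for 13.8% of all genes. Among the 176 lowered in WT, all OE sunlight libraries lay below for 135 (76.7%), against 14.3% of all genes. The OE libraries share in the spread behind the WT calls, which favours genes whose OE libraries scatter little. The shares over all genes are therefore not a like-for-like base. Taken singly against the mean of the OE greenhouse libraries, OE sunlight 2, 4 and 6 had median log2 ratios of 0.76, 0.81 and 0.82 over the genes raised in WT and of -0.84, -0.70 and -0.75 over the genes lowered in WT. OE greenhouse 1, 3 and 5, each set against the mean of the other 2, had medians between -0.02 and 0.04 over these same lists. Such medians do not show whether a library stands apart, since that of OE greenhouse 3 over all tested genes was also near 0. Without OE greenhouse 3 the OE medians were 0.87 and -0.80, and without OE sunlight 6 they were 0.90 and -0.85.

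Of the genes raised in WT, 86 (58.9%) also passed the threshold as raised in OE, and of those lowered in WT 85 (48.3%) passed it as lowered. The call rates over all genes were 2.91% and 1.98%. The 2 contrasts have no library in common, though both draw on 1 spread per gene from all 12 libraries. With each genotype fitted alone, so that no OE library entered the choice, 125 genes were raised and 148 lowered in WT. Of these, 124 and 145 were tested in OE, where 122 of the raised had a log2 fold change above 0 and 133 of the lowered had one below 0, with OE medians of 1.05 and -0.85.

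**Figure D4:**
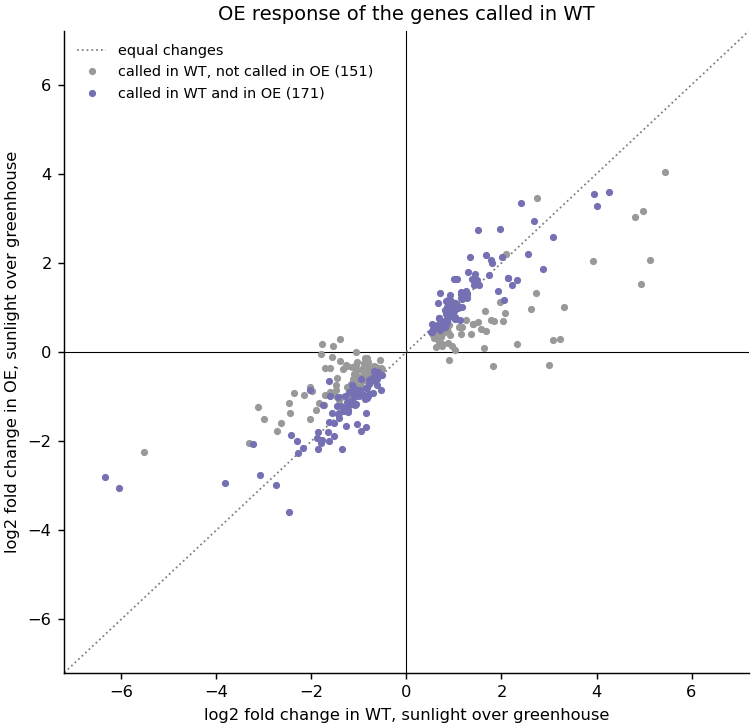
log2 fold change of sunlight over greenhouse in OE (vertical axis) against that in WT (horizontal axis) for the 322 genes called for sunlight in WT, coloured by whether they were also called in OE. The genes fill the upper right and lower left, 143 of 146 raised and 173 of 176 lowered genes having the same sign in OE, and the dotted line marks equal changes.

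In the other direction, 644 of the 667 genes raised in OE had a log2 fold change above 0 in WT, with a WT median of 0.40, and 433 of the 454 lowered in OE had one below 0, with a WT median of -0.61. Of the 100 genes that outlast every OE library, 99 had the same sign in WT, the exception being Potra001309g11258. For some of the 99 the change in WT was small. Potra002877g20209 had a log2 fold change of 1.12 in OE and 0.09 in WT (limma adjusted p = 0.824 in WT). Potra001370g11722 had 3.13 in OE and 0.22 in WT (limma adjusted p = 0.793 in WT). In WT 46 of the 100 genes were called, 29 raised and 17 lowered, where 1.4% of all tested genes were. All WT sunlight libraries lay above all WT greenhouse libraries for 65 of the 72 raised genes, where 13.3% of all genes did so, and below for 26 of the 28 lowered genes, where 11.7% of all genes did so. The WT libraries share in the spread behind the OE calls, which favours genes whose WT libraries scatter little, so these shares are not a like-for-like base.

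The summed levels of these groups are carried most by genes with many reads, so they do not show where the typical gene stood. Among the 146 genes raised in WT, Potra000539g03787 and Potra003143g20837 averaged 1369 and 1194 CPM in WT sunlight. In OE sunlight these averages were 542 and 1076 CPM. The 146 genes raised in WT summed to 7790 ± 219 CPM in OE sunlight and 3915 ± 107 CPM in OE greenhouse (SD, n = 3 each), a ratio of 1.99. In WT they summed to 11140 ± 826 CPM in sunlight and 3823 ± 267 CPM in the greenhouse, a ratio of 2.91 that the choice of genes in WT favours. The 176 genes lowered in WT summed to 6152 ± 397 CPM in OE sunlight and 12510 ± 288 CPM in OE greenhouse, and to 5559 ± 246 CPM in WT sunlight and 13070 ± 421 CPM in WT greenhouse. The 72 raised genes that outlast every OE library summed to 5989 ± 263 CPM in OE sunlight and 2292 ± 209 CPM in OE greenhouse, and to 8016 ± 258 CPM in WT sunlight and 3974 ± 318 CPM in WT greenhouse. The 28 lowered ones summed to 1070 ± 29.1 CPM in OE sunlight and 2943 ± 159 CPM in OE greenhouse, and to 1010 ± 47.2 CPM in WT sunlight and 2009 ± 47.1 CPM in WT greenhouse. These 100 genes were chosen on the OE libraries, so their OE sums are a description, and a low or high OE greenhouse level favoured their choice.

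**Figure D5:**
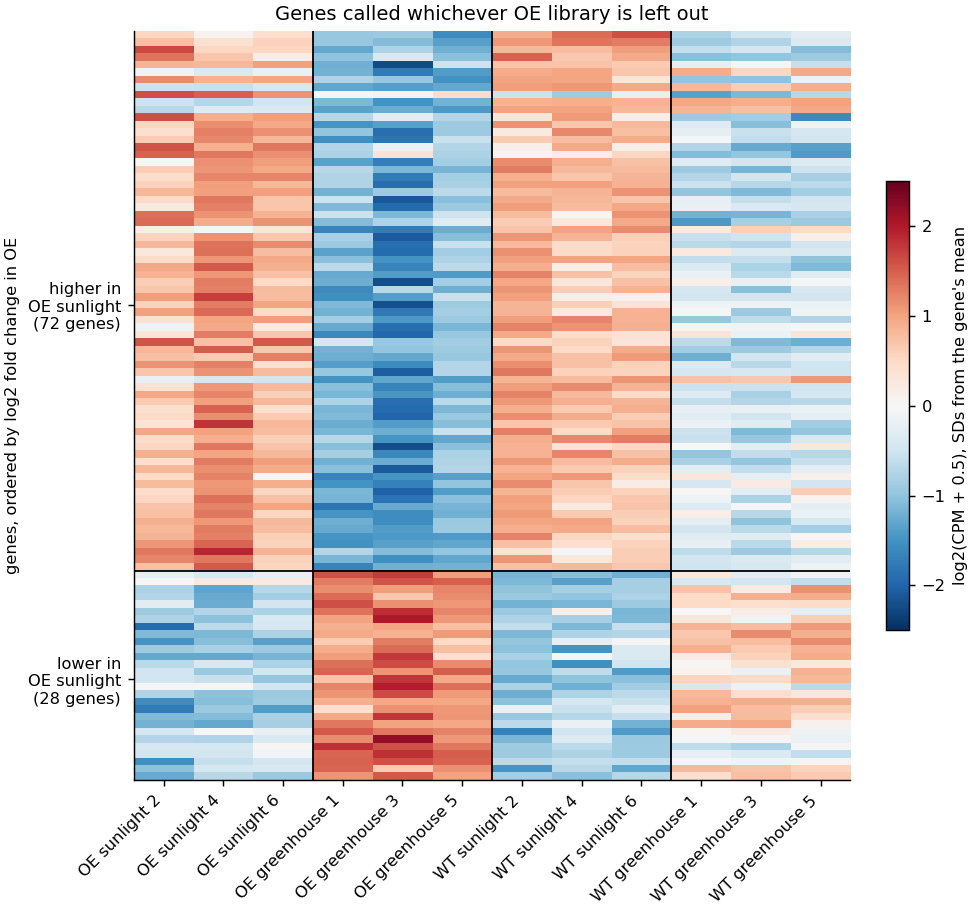
Levels of the 100 genes called whichever OE library is left out (rows, ordered by log2 fold change in OE) in the 12 libraries (columns), as SDs of log2(CPM + 0.5) from each gene's mean. OE sunlight and WT sunlight libraries are mostly above the mean for the 72 raised genes and below it for the 28 lowered genes, and OE greenhouse libraries are mostly the opposite.

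Whether sunlight acted differently in OE and in WT was tested directly, as the difference between the log2 fold changes. At a limma adjusted p under 0.05 it was called for 0 of 22959 genes (0%), as it was in a limma-trend fit, and the smallest adjusted p was 0.557. Before adjustment, 1377 genes (6%) had a p under 0.05, and 1435 by limma-trend. The share was 31.2% (350 genes) among the 1121 called in OE and 23.0% (74 genes) among the 322 called in WT. Among the 100 genes that outlast every OE library it was 45% (45 genes). Choosing genes by 1 of the 2 contrasts favours a difference, so the 6% is not a like-for-like base for these shares. Over all genes the median 95% interval of the difference reached 0.67 (log2) to either side, and over the genes called in OE 0.59, so that for a gene with the median interval a smaller estimated difference was not detectable even before adjustment. A gene called in OE and not in WT is therefore not shown to respond differently there.

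The genes with the smallest unadjusted p of the difference in each direction show what such differences would look like. Potra001309g11258 stood at 9.26, 5.90 and 9.91 CPM in OE sunlight 2, 4 and 6, and at 2.21, 0.713 and 1.86 CPM in OE greenhouse 1, 3 and 5. In WT it was far higher in every library, at 188, 202 and 184 CPM in sunlight 2, 4 and 6 and 224, 199 and 243 CPM in greenhouse 1, 3 and 5. Potra001309g11258 rose in OE by a log2 fold change of 2.42 ± 0.33 (SE) with limma adjusted p = 0.00529, had one of -0.21 ± 0.21 (SE) in WT with limma adjusted p = 0.665, and differed by 2.63 (95% interval 1.77 to 3.48, not adjusted for the choice of gene) with limma adjusted p = 0.557. Its OE greenhouse level rested on 35, 8 and 39 reads.

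Potra001727g14056 had the opposite pattern. It stood at 23.5, 10.4 and 20.5 CPM in OE sunlight 2, 4 and 6, and at 3.91, 8.82 and 6.50 CPM in OE greenhouse 1, 3 and 5. WT leaves held 498, 977 and 873 CPM in sunlight 2, 4 and 6, and 30.8, 16.9 and 27.5 CPM in greenhouse 1, 3 and 5. The log2 fold change of Potra001727g14056 was 1.52 ± 0.39 (SE) in OE with limma adjusted p = 0.0505, just outside the threshold, and 4.94 ± 0.38 (SE) in WT with limma adjusted p = 0.000719. The difference was -3.42 (95% interval -4.61 to -2.22, not adjusted for the choice of gene), with limma adjusted p = 0.614. Both genes were lower in OE than in WT in each condition, Potra001309g11258 by 22.6-fold in sunlight and 139-fold in the greenhouse, and Potra001727g14056 by 43.7-fold in sunlight and 4.09-fold in the greenhouse. These ratios share libraries with the sunlight comparisons.

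Few pairs of genes with neighbouring IDs were both called in OE, where only 2.91% of all tested genes were raised and 1.98% lowered. Of 12238 pairs of tested genes whose IDs share the same stem and carry consecutive numbers, 13 were both raised by sunlight, 8 were both lowered and 12 went in opposite directions. When the first of a pair was raised the next was raised in 3.54% of cases, against 3.05% over all pairs, and when the first was lowered the next was lowered in 3.67% of cases, against 1.63% over all pairs, which rests on those 8 pairs.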

How the data were processed

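The authors deposited 1 table of raw read counts per gene and library, not normalized, as the values show: entries are whole numbers, and totals differ. TopHat2 2.1.1, HTSeq 0.6.1 and Cufflinks appear, per the submitters' processing notes, with no roles stated. No source used here gives the genome build or the treatment of strand, so reads of overlapping genes and near-identical copies may be shared or lost. Of 33980 entries per table, 5 are summary entries and entered neither library sizes nor tests. Their shares were 6.85% to 32.2% (reads outside genes), 3.99% to 6.59% (ambiguous) and 3.73% to 5.80% (more than 1 place).

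The deposited counts were fitted with limma 3.58.1 voom in R 4.3.3, which models the mean-variance trend of log2 CPM, with all 12 libraries and 4 group means in 1 model, moderated robustly, and p-values were adjusted by Benjamini-Hochberg across every tested gene. A gene was kept with 0.69 CPM or more (10 counts in a library of median size) in 3 libraries and 15 counts in all, which left 22959 of 33975. Scaling was by trimmed mean of M values (30% of ratios, 5% of levels), and CPM uses these library sizes. The fit was tested on simulated data. Every pair of OE replicates differed by more than sampling noise, with chi-square 12.0 to 70.3 times its degrees of freedom.

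The comparison, the rule for naming genes and the lists were chosen with earlier results of these data known. Gene lists by function and leaf markers were not applied, since no table pairs the IDs with names. Exact 95% binomial intervals cover counting error only.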

Additional observations from a re-analysis of the deposited data

Results flagged for a closer look

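Reads that the counting set aside from genes are outside the comparison, and 4 of their shares in OE sunlight libraries were above those of all 3 OE greenhouse libraries. Reads outside genes made up 13.06% of OE sunlight 2 (exact 95% binomial interval 13.04% to 13.09%) and 8.474% of OE sunlight 4 (8.458% to 8.49%), against at most 8.155% in OE greenhouse. Reads ambiguous between genes made up 6.427% of OE sunlight 6 (6.419% to 6.435%), against at most 6.201% in OE greenhouse. Reads at more than 1 place made up 5.637% of OE sunlight 4 (5.624% to 5.65%), against at most 5.522% in OE greenhouse. The intervals cover counting error only, and the part of these reads in the sunlight response was not tested. The other shares of these classes of reads in OE sunlight libraries were not above all OE greenhouse libraries. In OE sunlight 2 the ambiguous reads, 5.231%, were below the lowest OE greenhouse share, 5.535%. No test was made of how often a single library lies outside a group of 3.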

How the results depend on the processing

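The number of genes called for sunlight in OE, 1121, stayed within 1.5 times of that under the other scalings, without the filter, in a non-robust fit and in limma-trend, between 934 and 1285. It was 2486 with library quality weights, 48 with the OE libraries fitted without WT, 2 with a 2-fold limit and 708 without OE greenhouse 3 and WT greenhouse 5 together, an alternative chosen after seeing the data. With single libraries left out it ran from 114 to 1250. The cause was not tested, beyond the smaller number of samples in some of these fits and the stricter limit in one. The 100 genes called whichever OE library is left out numbered 84 to 102 under the other scalings and without the filter.

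The share of genes called in WT with the same sign in OE, 98.1%, was 95.9% with library totals as scaling, 94.8% with each genotype fitted alone, and 97.0% to 100% without single OE libraries, the 100% being 141 of 141 genes without OE sunlight 6. The difference between genotypes was called for 0 genes in every alternative run except without WT sunlight 2, where 1 gene passed (range 0 to 1), Potra000959g07878, chosen after its values were seen. The genes named for sunlight in OE kept their direction in all 22 alternatives. They come from the genes called whichever OE library is left out, so in those fits the direction followed from the choice. Leaving out a WT library hardly moved their OE fold change, so those fits could not have reversed it either. Potra002245g17252, Potra003143g20837 and Potra001566g12943 lost their calls under the 2-fold limit, and Potra003143g20837 also without the WT libraries.

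OE sunlight and OE greenhouse share no replicate number, so the number can pair only OE with WT libraries. The deviations of same-numbered libraries correlated at -0.611 to 0.0957 over genes, and 1 of 6 OE libraries correlated best with its own number. A replicate block called 1123 genes for sunlight in OE and 0 for the difference.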
